A study of Mus musculus with 4 samples.

Results

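A small class of mammary epithelial cells that carried mRNA of Crct1 was present in both LATS1/2-KO mice and was not found in the CTL mice. The class was defined as LATS1/2-KO cells with at least 2 UMIs of Crct1, where a UMI is a counted mRNA molecule, among cells with more than 500 genes, under 20% mitochondrial UMIs, at least 10 UMIs of Krt8 plus Krt18 per 10000 and no UMI of the leukocyte gene Ptprc. It held 122 of 3861 epithelial cells in LATS1/2-KO replicate 1, a share of 3.16% (95% exact binomial interval 2.63 to 3.76), and 90 of 3418 in replicate 2, a share of 2.63% (2.12 to 3.23). The 212 members were 2.91% of the 7279 epithelial cells of these libraries, and the series as a whole holds 18200 cells that passed the limits on genes and mitochondrial UMIs. Since measured Crct1, keratin, Ptprc and reporter counts named and chose these cells, their values are given as a description without a test.

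The series profiled live cells of the mammary gland by droplet-based single-cell RNA sequencing in 4 adult nulliparous mice, 1 library per mouse. All 4 mice were Lats1f/f;Lats2f/f;R26-lsl-EYFP and received 2 mg tamoxifen on each of 5 days, with tissue taken 7 days after the last dose. The 2 CTL mice had no Cre and were heterozygous for lsl-EYFP. The 2 LATS1/2-KO mice also carried Krt8-CreERT2, in which the Krt8 promoter confines the tamoxifen-dependent recombinase to Krt8-expressing cells, and had 1 lsl-EYFP allele in replicate 1 and 2 in replicate 2. EYFP transcripts therefore mark cells in which the reporter was recombined, which need not be the same cells in which all Lats1 and Lats2 alleles were. Cells were sorted for viability only.

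LATS1 and LATS2 are the kinases at the end of the Hippo pathway. They phosphorylate YAP and TAZ and so keep these co-activators out of the nucleus, where YAP and TAZ act with TEAD transcription factors on genes such as Ctgf and Cyr61. The normal mammary duct has an inner luminal layer that makes Krt8 and Krt18 and an outer basal layer that makes Krt14 and Krt5. Crct1 is a small cysteine-rich protein gene in the epidermal differentiation complex, a cluster of genes of stratified epithelium, and Msln encodes mesothelin, a surface glycoprotein made by mesothelial cells.

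The 4 libraries held 38792520 to 46810771 UMIs in cells that passed the limits, with 3515 to 5272 such cells each. The median member had 12304 and 14256.5 UMIs in replicates 1 and 2, against 12955 and 14671 in the comparison cells described below, so that members and comparison cells were close in depth, while LATS1/2-KO epithelial cells without EYFP and Crct1 were shallower at 5968.5 and 6011.5. Barcodes found in more than 1 library numbered 51, of which 2 were members. The members' summed counts were 1741791 and 1464677 UMIs.

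Crct1 was at 0 in all 4436 and 3225 epithelial cells of the CTL libraries, which allows a share of cells with a UMI of up to 0.0676% and 0.093%. In LATS1/2-KO epithelial cells, 8.03% and 5.35% had at least 1 Crct1 UMI, against 2.51% (16 of 638) and 1.94% (36 of 1854) of the cells of the same libraries that were not epithelial by the keratin and Ptprc limits. Those cells had median depths of 5388 and 4470.5 UMIs against 7084 and 7633.5 in the epithelial cells. A single Crct1 UMI was thus also seen outside the epithelium, whereas 2 or more UMIs were counted in 1 and 5 of those cells. Intervals and limits from counts cover counting error only.

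The distribution had a long upper tail. Crct1 had a median of 7 and 6 UMIs per member, with upper quartiles of 19.5 and 14.75. The highest member of replicate 1 had 154 UMIs and that of replicate 2 had 1401. The latter cell held 43.9% of the replicate's Crct1 UMIs, and Crct1 stood at 2178 CPM (UMI counts scaled to a common total) over all its members and at 1235 CPM without that cell, beside 1209 CPM in replicate 1. Just outside the limit, 188 and 93 epithelial cells had 1 Crct1 UMI, and just inside it 30 and 19 had 2.

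EYFP and Msln accompanied Crct1. Among members, 78 of 122 (63.9%, interval 54.7 to 72.4) and 71 of 90 (78.9%, 69.0 to 86.8) had at least 1 EYFP UMI, against 16.8% and 23.3% of the Crct1-0 epithelial cells, 3.13% and 3.13% of the cells that were not epithelial and 0.293% and 0.434% of CTL epithelial cells. Members were deeper than the Crct1-0 cells. When every cell was thinned to 2000 UMIs, the EYFP shares were 35.2% and 41.6% in members, 14.3% and 24.7% in cells with 1 Crct1 UMI and 8.16% and 12.3% in Crct1-0 cells. Replicate 2, with the higher shares, also carried the second reporter allele. Msln was detected in 78.7% and 82.2% of members, in 26.1% and 39.8% of cells with 1 Crct1 UMI, in 15.9% and 16.9% of Crct1-0 cells and in 0.293% and 0.589% of CTL epithelial cells. EYFP and Msln were found together in 54.9% and 70.0% of members.

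**Figure D1:**
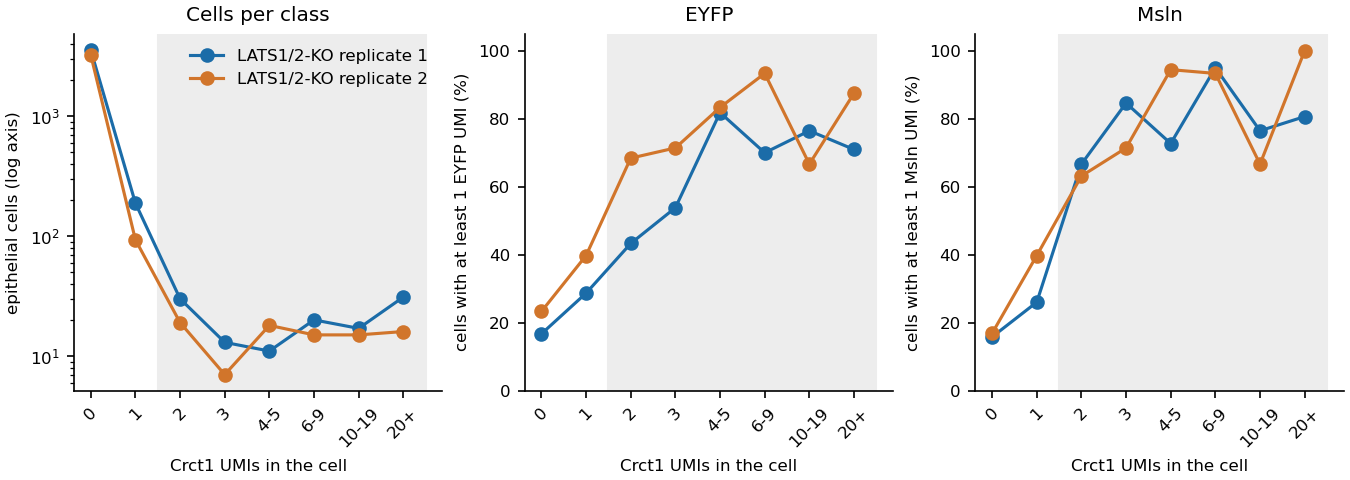
Epithelial cells of the 2 LATS1/2-KO libraries by their number of Crct1 UMIs (left, log axis), with the percentage of each class that had at least 1 EYFP UMI (middle) and at least 1 Msln UMI (right); the grey area marks the members. EYFP was seen in 16.8% and 23.3% of cells without Crct1 and in 71.0% and 87.5% of cells with 20 or more Crct1 UMIs.

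The gene-wide comparison asked what else set members apart from cells of the same mice in which the reporter was on. The members themselves needed no EYFP UMI, and 78 of 122 and 71 of 90 had one. Members were compared with the LATS1/2-KO epithelial cells that had no Crct1 UMI and at least 1 EYFP UMI (595 and 755 cells, called EYFP+ Crct1-0 cells here), with counts summed per library and cell group and the mouse as a block. Of 11478 genes tested with edgeR, 2807 were called at a Benjamini-Hochberg adjusted p under 0.05, which is 24.5% of them. The calls were 1438 genes higher in members (12.5%) and 1369 lower (11.9%), and 420 in each direction changed by at least 1 on the log2 scale. These 2 shares are the background for the counts of called genes in the lists below. The median log2 fold change of all tested genes was 0.0013. With EYFP-positive members only, an alternative added after seeing the data, 2341 genes were called, 2237 of them also among the 2807. The fit has 4 sums from 2 mice, 1 degree of freedom between them and a spread estimated across all genes, so the values of each mouse are given with every result. The counts include Crct1, Krt8 and Krt18, which chose the members, and Msln, and nothing is read from those calls. Of the 2807 called genes, 2795 had the same sign in both mice, and in 2704 the members and comparison cells did not overlap. The test used the same 4 sums, so these counts largely follow from the calling. The shares over all tested genes were not counted, and nothing is read from these counts. As the test compares classes chosen from the same libraries, a called gene is one that went with the Crct1 class in the fit to both mice. A call did not require the same sign in each mouse.

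Leaving out Crct1, the gene with the largest called increase among those of at least 50 CPM was Trdc, the constant segment of the T cell receptor delta chain (chromosome 14, 54142851 to 54148868, GRCm38). It stood at 199 and 278 CPM in members and at 2.08 and 2.86 CPM in EYFP+ Crct1-0 cells, with a log2 fold change of 6.62 ± 0.15 (SE; adjusted p = 9.5e-20). The member sums were far above the comparison sums in both mice. It was not a feature of most members, however: Trdc was detected in 20 of 122 and 22 of 90 of them, against 13 of 595 and 15 of 755 comparison cells. The highest member held 23.3% and 41.3% of the Trdc UMIs of its library, and 154 and 165 CPM were left without it.

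Trdc was accompanied by few other T cell transcripts. Cd3e, Cd3d and Cd3g, the invariant chains of the receptor complex, had 0 UMIs in the members of both mice, and so did Nkg7, Cd7 and Lck. Trac had 1 UMI in replicate 1 and 0 in replicate 2, Trbc1 and Il2rb had 0 and 1 each, and Trbc2 had 4 and 3. Among cells with a Ptprc UMI, Cd3g was detected in 55.3% and 42.0% in the CTL libraries and in 4.04% and 5.61% in the LATS1/2-KO libraries. These genes were chosen after the Trdc values had been seen. Members were chosen to have keratin and no Ptprc UMI, so low counts of T cell genes in them follow in part from that choice. Which exons the Trdc counts came from cannot be read from a table of counts per gene. Low levels of Trdc were present in CTL epithelial cells too, at 1.70 and 3.77 CPM. Within LATS1/2-KO epithelium, at least 2 Trdc UMIs were counted in 0.366% and 0.278% of cells without Crct1, in 7.41% and 6.82% of those with 2 to 5 Crct1 UMIs and in 14.7% and 26.1% of those with 6 or more. Members made up 14 of 30 and 15 of 26 of the epithelial cells with at least 2 Trdc UMIs.

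The next genes in order of fold change included secreted, surface and signalling genes of several kinds. S100a7a, a calcium-binding protein of keratinocytes, stood at 47.7 and 92.9 CPM in members and at 3.82 and 3.27 CPM in EYFP+ Crct1-0 cells (log2 fold change 4.36 ± 0.23, adjusted p = 1.5e-12). Calcb, the gene of the neuropeptide beta-CGRP, was at 121 and 104.5 against 24.9 and 7.85 CPM (2.91). Unc5b, a netrin receptor, was at 60.9 and 60.1 against 7.64 and 9.64 CPM (2.83), so that its level was nearly the same in the members of both mice. Peg3, an imprinted zinc finger gene, was at 31.0 and 79.9 against 7.64 and 9.56 CPM (2.69). Nipal1, a magnesium transporter gene, was at 63.2 and 47.8 against 10.3 and 8.74 CPM (2.56), and Upk3bl, a uroplakin-like gene, at 43.1 and 79.2 against 7.06 and 16.02 CPM (2.45). Each of these genes was detected in a minority of members, from 15.6% (Peg3, replicate 1) to 46.7% (Nipal1, replicate 1). S100a7a was detected in 22.1% and 22.2% of members against 4.71% and 2.52% of comparison cells, and Peg3 in 15.6% and 25.6% against 8.91% and 9.93%. A single member held 28.2% of the Peg3 UMIs and 27.5% of the Calcb UMIs in replicate 2. The rule that named these genes took only changes of the same sign in both mice. Fam25c had a log2 fold change of 2.97, but 1 cell held 83.8% of its UMIs in the members of replicate 1, and its level there went from 103 to 17.1 CPM without that cell, below the 21.4 CPM of the comparison cells.

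Sequences before the RefSeq start of 3 of these genes are shown. The reason is that YAP and TAZ reach DNA through TEAD factors, whose core motif is GGAATG. The sequences are from RefSeq (build GRCm38.p6), limited to the bases before the start site that GENCODE does not annotate as exon, and the capitals mark matches to GGAATG on either strand. The stretch of S100a7a, chr3:90654099-90654286 on the plus strand, holds 3 matches, 2 of them back to back. GENCODE starts this gene earlier, at 90654017, so the stretch lies within the gene as GENCODE annotates it and not upstream of it.
S100a7a: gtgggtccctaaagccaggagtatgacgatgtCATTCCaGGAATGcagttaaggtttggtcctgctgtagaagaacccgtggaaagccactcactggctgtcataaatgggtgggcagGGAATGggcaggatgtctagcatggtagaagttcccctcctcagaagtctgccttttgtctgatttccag
The stretch of Peg3, chr7:6730432-6730577 on the minus strand, holds 1.
Peg3: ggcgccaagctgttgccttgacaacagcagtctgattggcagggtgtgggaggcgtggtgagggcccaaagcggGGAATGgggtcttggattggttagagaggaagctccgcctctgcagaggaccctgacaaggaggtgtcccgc
The stretch of Bmp4, chr14:46390670-46390919 on the minus strand, holds none.
Bmp4: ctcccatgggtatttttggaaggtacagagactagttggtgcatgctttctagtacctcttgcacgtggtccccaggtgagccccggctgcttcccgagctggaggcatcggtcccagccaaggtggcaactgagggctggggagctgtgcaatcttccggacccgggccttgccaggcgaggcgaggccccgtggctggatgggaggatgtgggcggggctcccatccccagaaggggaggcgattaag
A RefSeq promoter was found for 7 of the 12 genes with the largest increases. In the 250 bases before the RefSeq start, 2 held the TEAD motif, S100a7a and Peg3, and 1, Fam25c, the AP-1 motif TGANTCA. For S100a7a and Upk3bl those bases lie wholly within the gene as GENCODE annotates it. The TEAD motif was present in 14.4% of the promoters of all 27025 genes in the table, in 12.6% of those of tested genes, in 14.7% of those called higher and in 12.7% of those called lower. The AP-1 motif was present in 7.82%, 5.41%, 9.18% and 4.25% of them. These shares describe letters in a short window and no binding was measured.

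Most of the squamous keratin and envelope genes that could be tested were higher in members than in EYFP+ Crct1-0 cells. Of 34 listed genes of squamous and cornified epithelium, 15 were tested, and 10 were called higher, 2 lower and 3 not. Their median log2 fold change was 1.00, and over all tested genes 12.5% were called higher and 11.9% lower. Among the 10 was Ly6d, of which the highest member of each mouse held 48.4% and 49.8% of the UMIs. Without that member 56.8 and 74.5 CPM were left, below the 93.5 and 106 CPM of comparison cells. Ly6d was detected in 17.2% and 11.1% of members against 24.4% and 20.8% of comparison cells. The summed level of the list was 2221 and 1880 CPM in members and 1138 and 1026 CPM in EYFP+ Crct1-0 cells. In CTL epithelial cells the sum was higher than in members, at 3151 and 3285 CPM. Krt6a, a keratin of hair follicles, nail bed and wounded epidermis, stood at 309 and 203 CPM against 64.7 and 31.5 CPM in EYFP+ Crct1-0 cells (2.48 ± 0.11, adjusted p = 5.0e-14) and was detected in 64 of 122 and 43 of 90 members. Its near-identical copy Krt6b was at 0. Krt4, a keratin of wet stratified epithelium such as the oesophagus, stood at 104.5 and 102 CPM against 16.1 and 15.2 CPM (2.76), but was detected in 16.4% and 23.3% of members only. Sfn, a 14-3-3 protein of stratified epithelium, was at 1415 and 1092 against 730 and 631 CPM (0.90), below the 1986 and 1718 CPM of CTL epithelial cells.

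Envelope and desmosome genes moved at lower levels. The plakin gene Evpl was at 35.6 and 51.2 CPM against 12.7 and 15.2 (1.66), the desmosomal cadherin gene Dsg3 at 6.89 and 15.0 against 2.78 and 2.21 (2.14) and the envelope gene Lor at 14.9 and 10.9 against 6.49 and 3.84 (1.36). The 2 genes called lower were Sprr1a, a precursor of the cornified envelope, and Pkp1, a desmosomal plaque gene. Genes of terminal keratinocyte differentiation were present in part. Ivl, Flg, Krt1, Krt13 and Tgm3 were among 15 of the 34 genes with 0 UMIs in all members, whereas the suprabasal keratin gene Krt10, at 12.6 and 17.8 against 11.2 and 12.7 CPM, and the transglutaminase gene Tgm1, at 26.4 and 36.9 against 37.8 and 39.2 CPM, were present and not called. With cells thinned to 2000 UMIs, 4 of 10 tested genes of the list were called higher and 0 lower.

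Crct1 itself lies within the epidermal differentiation complex (chromosome 3, 93014205 to 93015687, minus strand), and the genes around it moved only in part. Of 71 genes in the files within 1000 kb on either side, 47 had no UMI in members or comparison cells and 6 were expressed enough to be tested. Of these 6, Lor, Lce1h, Tchh, S100a11 and S100a10 were called higher and Sprr1a lower. The nearest neighbours, the late cornified envelope genes Lce3a to Lce3f and Lce1m, had at most 1 UMI in the members of a mouse. Tchh, which encodes trichohyalin of the hair follicle, was at 31.0 and 40.3 CPM in members and at 16.3 and 13.9 CPM in comparison cells. The late cornified envelope genes next to Crct1 thus stayed near 0 in members.

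Members, chosen for luminal keratins, were lower in several markers of luminal ER- cells. Of 12 tested markers of luminal ER- cells, 0 were called higher and 8 lower (median log2 fold change -0.94). Over all tested genes the shares were 12.5% and 11.9%. Elf5, a transcription factor of alveolar progenitors, was at 18.9 and 23.9 CPM against 49.4 and 48.3 (-1.17), and Kit, a receptor of luminal progenitors, at 33.9 and 62.1 against 76.3 and 122 CPM (-1.03). The casein gene Csn3 was at 208 and 193 against 529 and 524 CPM (-1.36), Trf, the transferrin gene, at 28.7 and 60.1 against 81.4 and 131 CPM (-1.25), and in CTL epithelial cells the levels were 1426 and 2209 CPM for Csn3 and 923 and 1102 CPM for Trf. These calls depended on the Crct1 limit: with 1 UMI in place of 2, 3 markers were called higher and 1 lower. Slpi and Lcn2, secreted defence proteins of luminal cells, fell as well, from 245 and 216 to 65.5 and 58.0 CPM and from 2322 and 2157 to 904 and 799.5 CPM.

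Of 10 tested luminal ER+ markers, 3 were called higher and 2 lower, beside 12.5% and 11.9% of all tested genes. Wnt4, a Wnt ligand that acts downstream of progesterone, was at 272 and 375 CPM in members and at 99.0 and 89.6 CPM in EYFP+ Crct1-0 cells (1.80 ± 0.11, adjusted p = 1.3e-11). Its usual partners did not follow, since Pgr and Esr1, the hormone receptor genes, were at 2.30 and 2.05 CPM and at 12.6 and 5.46 CPM in members and were not called, and Cited1 was called lower. Foxa1, a pioneer factor of hormone-sensing cells, was at 27.6 and 34.1 against 15.1 and 8.42 CPM (1.44), a call lost when cells were thinned or cells with G2/M transcripts were left out. Prlr, the prolactin receptor gene, was called at a log2 fold change of 0.36, a call that was lost without the mouse as a block and with DESeq2, and against EYFP-0 Crct1-0 cells the value was -0.87.

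Krt14 was the most abundant basal marker and rose. It was at 5470 and 4196 CPM in members, 2486 and 1743 CPM in EYFP+ Crct1-0 cells, 1042 and 805 CPM in LATS1/2-KO epithelial cells with neither Crct1 nor EYFP and 14.7 and 11.01 CPM in CTL epithelial cells (members against EYFP+ Crct1-0 cells 1.23 ± 0.06, adjusted p = 3.6e-13). The CTL epithelial cells passed the same limit on Krt8 and Krt18, so CTL cells low in these luminal keratins are not part of that value. Nearly all members carried Krt14 beside Krt8, at 121 of 122 and 85 of 90 cells. Its partner Krt5 was at 9.76 and 2.05 CPM and was detected in 5 of 122 and 2 of 90 members. Trp63, the basal master regulator, was too low to be tested. Of 11 tested basal markers, 2 were called higher and 3 lower, with a median of -0.72. Over all tested genes 12.5% were called higher and 11.9% lower. The other gene called higher was Cnn2, at 224 and 232 against 174 and 190 CPM. Among those lower, the smooth muscle gene Tagln was at 22.4 and 13.7 against 33.6 and 39.1 CPM, Acta2, also of smooth muscle, at 122 and 116 against 146 and 188 CPM, and Igfbp5 at 60.3 and 130 against 134 and 238 CPM.

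Msln came with some mesothelial markers and not with others. Of 11 mesothelial markers, Wt1, Nkain4 and Calb2 had 0 UMIs in members, and Upk3b, Lrrn4 and Gpm6a were too low to be tested. Of the 5 tested, 4 were called higher and 1 lower, beside 12.5% and 11.9% of all tested genes. Those called higher were Krt19, a keratin that luminal cells also make (2378 and 2527 against 1682 and 1262 CPM), Upk1b, which is also a urothelial gene (102 and 152 against 40.6 and 33.2 CPM), the mucin gene Muc16 (11.5 and 30.0 against 4.52 and 5.64 CPM) and Bnc1, at under 15 CPM in each sum. The one called lower was Rspo1. Of 5 uroplakins, only Upk1b was tested.

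Markers of stromal and immune cells were far below their level in the cells that were not epithelial. As the keratin and Ptprc limits separated these cells from the members, that difference largely follows from the limits. The summed level was 451 and 314 CPM in members for 8 fibroblast markers, against 360 and 311 CPM in comparison cells and 18399 and 16197 CPM in the cells that were not epithelial. It was 16.6 and 36.2 against 22.003 and 12.3 CPM for 7 endothelial markers, and 40.8 and 49.8 against 39.7 and 60.1 CPM for 8 immune markers, of which 0 of 7 tested were called by edgeR or DESeq2 and 1 (Cd74) had an unadjusted edgeR p under 0.05. At an adjusted p under 0.05, Col3a1 of 7 tested fibroblast markers and Pecam1 of 5 tested endothelial markers were called higher. Against EYFP-0 Crct1-0 cells both had the opposite sign, at -1.47 and -1.18 on the log2 scale. A single member held 48.9% of the Col3a1 UMIs in replicate 1, where 70.9 CPM were left without it against 97.0 in comparison cells, and another held 78.9% of the Pecam1 UMIs in replicate 2, where 2.76 CPM were left against 3.02. Of 6 adipocyte markers, 1 was tested and was not called. Their part in the results was not tested gene by gene. With all cells that held 2 or more UMIs of these markers left out, only 19 and 17 members remained and 492 genes were called, 467 of which were also among the 2807. Without the cells of the highest doublet scores (4 and 3 members), 2715 genes were called.

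**Figure D2:**
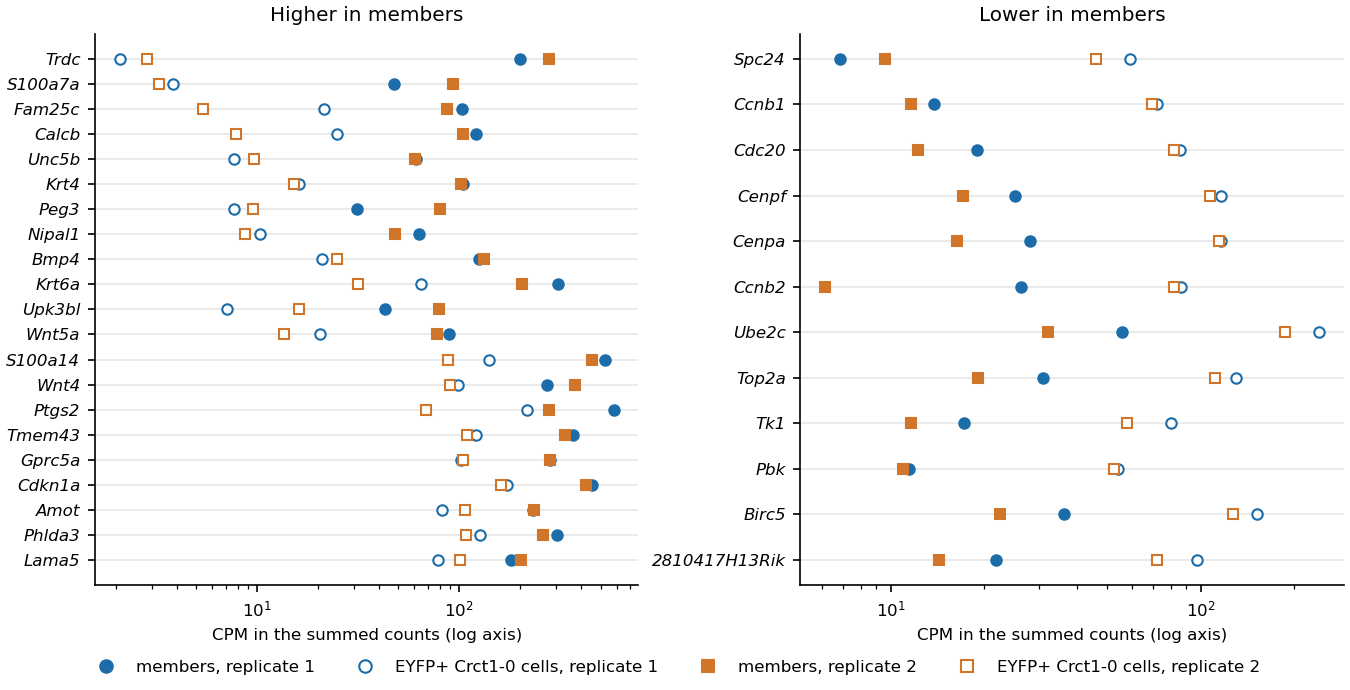
CPM in the counts summed over members (filled) and over EYFP+ Crct1-0 cells (open) of LATS1/2-KO replicates 1 (circles) and 2 (squares), on log axes, for the genes with the largest increases or most broadly raised detection (left) and the largest decreases (right). The genes with the largest changes were chosen as called, so that a gap between their filled and open points largely follows from that choice. Those with raised detection were chosen by their detection in members relative to EYFP+ Crct1-0 cells, which also favours such a gap. Trdc is at the top with 199 and 278 against 2.08 and 2.86 CPM.

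Genes found in at least 25% of members were also ranked by their detection in members relative to comparison cells after thinning. The list then changed to moderately expressed epithelial genes. As that ranking favours genes higher in members, the direction of the changes below largely follows from it. S100a14, an S100 gene of epithelia on chromosome 3 (90526856 to 90528837), was at 528 and 452 CPM in members against 140 and 87.9 CPM (2.16 ± 0.09, adjusted p = 4.8e-14), and was found in 77.0% and 73.3% of members against 49.1% and 34.7% of comparison cells as counted. Tmem43 was at 363 and 334 against 121 and 109 CPM (1.63), Gprc5a, an orphan receptor gene, at 281 and 280 against 102 and 104 CPM (1.47), and Amot, an angiomotin that binds YAP, at 231 and 234 against 82.1 and 107 CPM (1.34). Ptgs2, which encodes the cyclo-oxygenase that makes prostaglandin H2, was at 580 and 279 against 216 and 68.7 CPM (1.72). The 2 mice differed in Ptgs2 in both groups, so that the members of replicate 2 were only just above the comparison cells of replicate 1, and the call was lost without the mouse as a block.

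Cell cycle genes fell together. All 20 tested S phase genes and all 20 tested G2/M genes were called lower in members, with median log2 fold changes of -1.45 and -2.21, and the 12 largest decreases among called genes of at least 50 CPM, which include the mitotic genes Spc24, Ccnb1, Cdc20, Cenpf, Cenpa, Ccnb2, Ube2c and Top2a, were of the same kind. Ccnb1, the mitotic cyclin B1, was at 13.8 and 11.6 CPM in members against 72.1 and 69.7 CPM (-2.44 ± 0.18, adjusted p = 4.6e-10). Mki67, the proliferation marker, was at 28.7 and 15.7 against 103 and 104.5 CPM (-2.17). Members still lay above CTL epithelial cells, in which Ccnb1 was at 0.469 and 3.16 CPM.

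The same was seen cell by cell at equal depth. After thinning to 2000 UMIs, 12 of 122 (9.84%, interval 5.19 to 16.6) and 2 of 89 (2.25%, 0.273 to 7.88) members had 2 or more UMIs over the 20 G2/M genes, against 36.3% (32.4 to 40.4) and 31.6% (28.3 to 35.2) of EYFP+ Crct1-0 cells. As counted, the shares were 34.4% and 23.3% against 60.0% and 49.7%. For the S phase genes the thinned shares were 13.9% and 12.4% against 37.0% and 32.0%. Epithelial cells of the same mice with neither Crct1 nor EYFP had G2/M shares of 18.1% and 11.1%, and CTL epithelial cells of 0.522% and 1.49%. The member intervals lay below those of the comparison cells in each mouse, but the intervals cover counting error only, and the difference of the shares between mice was not tested, as an exact permutation test over 2 mice cannot reach 0.05.

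**Figure D3:**
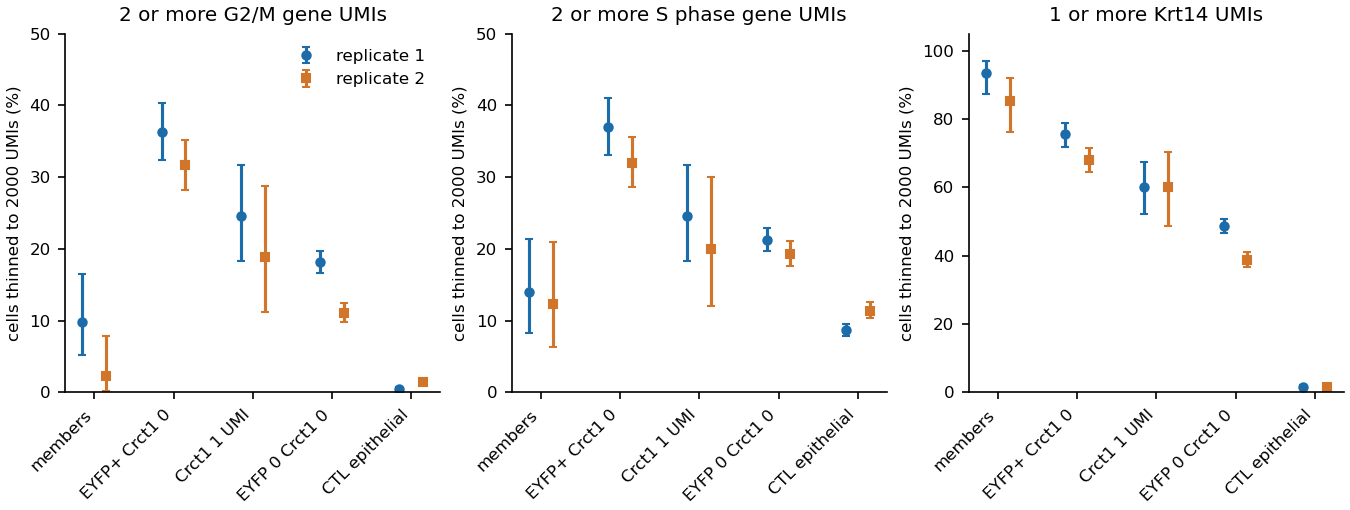
Percentage of cells, after thinning to 2000 UMIs, with 2 or more G2/M gene UMIs (left), 2 or more S phase gene UMIs (middle) and any Krt14 UMI (right), per library; bars are 95% exact binomial intervals. Members had G2/M shares of 9.84% and 2.25% against 36.3% and 31.6% in EYFP+ Crct1-0 cells, with Krt14 in 93.4% and 85.4% against 75.6% and 68.1%.

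Several inhibitors of the cell cycle and p53 targets rose. Of 15 tested genes of that list, 10 were called higher and 2 lower (median 0.61), beside 12.5% and 11.9% of all tested genes. Cdkn1a, the CDK inhibitor p21, was at 453 and 424 CPM against 172 and 161.5 CPM (1.43 ± 0.07, adjusted p = 1.3e-12), and Phlda3, a p53 target that restrains AKT, at 305 and 261 against 126 and 108 CPM (1.30). Cdkn2b, which encodes p15, was at 94.2 and 102 against 56.4 and 53.03 CPM (0.87), and Mdm2, which restrains p53, at 131 and 109 against 75.04 and 74.1 CPM (0.71). The 2 lower genes were Cdkn1b, the CDK inhibitor p27, and Ccnd1, the G1 cyclin D1, which fell from 590 and 506 to 294 and 207 CPM (-1.11).

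Part of these differences went with the cycling cells. With cells that had 2 or more G2/M UMIs as counted left out, 80 and 69 members and 238 and 380 comparison cells remained, and 816 genes were called, 672 of which were among the 2807. The p53 and CDK inhibitor list then had 2 genes called higher and 1 lower, with a median of 0.14, and of the 10 S phase genes still expressed enough for a test 0 were called. Cdkn1a, Phlda3, S100a14, Krt6a, Trdc and Krt14 kept their calls.

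YAP and TAZ targets were called higher in members more often than lower. Of 22 tested targets, 14 were called higher and 1 lower, with a median log2 fold change of 0.54. Over all tested genes 12.5% were called higher and 11.9% lower. Ctgf, a matricellular protein and common readout of YAP activity, was at 1077 and 1403 CPM in members, 688 and 1052 CPM in EYFP+ Crct1-0 cells and 11.4 and 8.72 CPM in CTL epithelial cells (members against EYFP+ Crct1-0 cells 0.56 ± 0.07, adjusted p = 6.2e-07). The members of replicate 1 were only just above the comparison cells of replicate 2, and the call was lost without the mouse as a block and without G2/M cells. Amotl2, which restrains YAP, was at 374 and 358 against 195 and 208 CPM (0.89), and Myof, a membrane repair gene, at 389 and 354 against 230 and 195 CPM (0.84). Axl, a receptor tyrosine kinase gene, was at 46.5 and 45.1 against 24.1 and 24.2 CPM (0.95). Cyr61 was called at a log2 fold change of 0.25.

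Ankrd1, a nuclear ankyrin repeat gene among the sharpest responders to YAP, was the one target called lower, at 331 and 294 against 439 and 349 CPM (-0.30, adjusted p = 0.0048). This call turned with the comparison: against Crct1-0 cells without EYFP, in which Ankrd1 was at 229 and 181 CPM, it was higher in members by 0.65. Of the list, 5 genes were called higher and 1 lower without G2/M cells, and 7 and 0 with thinned cells.

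The pathway's own genes did not differ by this test. Of 16 tested genes of the Hippo pathway and its TEAD factors, 0 were called by edgeR or DESeq2. By edgeR, 24.5% of all tested genes were called. Only Lats2 of the 16 had an unadjusted edgeR p under 0.05, and their median log2 fold change was -0.02. Lats1 was at 9.19 and 17.8 CPM in members, 11.3 and 11.2 CPM in EYFP+ Crct1-0 cells and 24.0 and 24.0 CPM in CTL epithelial cells (members against EYFP+ Crct1-0 cells 0.26, adjusted p = 0.55). Lats2 was at 41.9 and 31.4 against 26.9 and 30.2 CPM, above the 13.8 and 15.1 CPM of CTL (0.40, adjusted p = 0.095). A 3' count outside the deleted exons is no check of the deletion. Yap1, at 46.5 and 35.5 against 35.8 and 46.4 CPM, and Tead1, at 158.5 and 146 against 168 and 168 CPM, were close in both groups.

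**Figure D4:**
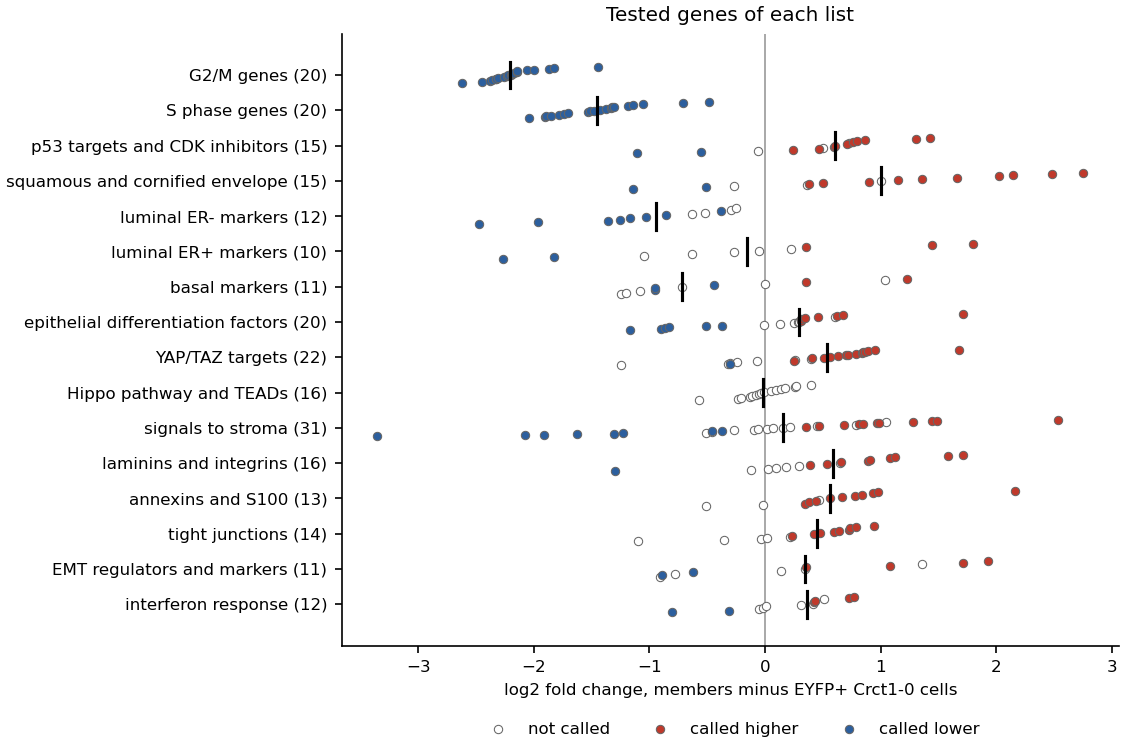
Log2 fold change of each tested gene of 16 lists, members minus EYFP+ Crct1-0 cells (positive values are higher in members); red and blue points were called higher and lower, open points were not called, the black bar is the list's median and the number of tested genes stands in parentheses. The 20 G2/M genes have a median of -2.21 and the 22 YAP/TAZ targets one of 0.54.

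Signals to other cells went both ways. Of 31 tested ligands of a list of signals to stroma, 11 were called higher and 8 lower (median 0.16). Over all tested genes the shares were 12.5% and 11.9%. Among those higher, Bmp4 was at 126 and 133 CPM against 20.8 and 24.8 CPM (2.53 ± 0.12, adjusted p = 3.6e-13) and was detected in 60 of 122 and 48 of 90 members. Edn1, the vasoconstrictor endothelin, was at 369 and 492 against 161 and 159 CPM (1.45), Wnt7a at 85.0 and 68.3 against 27.8 and 27.9 CPM (1.49), Sema3e, a guidance factor of vessels and axons, at 76.9 and 117 against 36.6 and 44.1 CPM (1.28) and Tgfb2 at 223 and 262 against 136 and 139 CPM (0.85). Wnt5a, a non-canonical Wnt that was not on the list, was at 89.0 and 77.1 against 20.4 and 13.6 CPM (2.33). Among those lower, the chemokine gene Ccl20 was at 1.72 and 0 against 11.8 and 7.44 CPM, Ccl2, which draws monocytes, at 10.9 and 6.83 against 45.2 and 22.6 CPM (-1.91), and Cxcl1, which draws neutrophils, at 43.6 and 32.1 against 123 and 117 CPM (-1.63). Tgfb3 fell as well, from 49.7 and 96.0 to 24.7 and 31.4 CPM, and the other genes called lower were Cxcl2, Cxcl5, the growth factor gene Csf1 (-0.37) and the matrix gene Tnc (-0.45).

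Genes of adhesion to the basement membrane were called higher more often than lower. Of 16 tested laminins and integrins, 9 were called higher and 1, Itgb8, lower (median 0.59), beside 12.5% and 11.9% of all tested genes. Lama3, a laminin alpha chain gene, was at 49.9 and 36.9 against 16.1 and 13.3 CPM (1.59), and Lama5, another, was at 180 and 202 against 78.9 and 101 CPM (1.13). Itga5, a fibronectin receptor chain, was at 28.1 and 19.8 against 8.80 and 6.05 CPM (1.72). Of 15 tested collagens, 2 were called higher and 1 lower, and nothing is read from that count beside the shares over all tested genes.

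Annexins and S100 genes, which bind calcium at membranes, were called higher for 10 of 13 tested genes and lower for 0 (median 0.56). Over all tested genes 12.5% were called higher and 11.9% lower. S100a6 was at 19293 and 20142 CPM against 14065 and 11448 CPM (0.67), and Anxa1 at 6078 and 7690 against 4000 and 4159 CPM (0.78). Of 14 tested tight junction genes, 9 were called higher and 0 lower (median 0.45), among them Cldn4 at 1581 and 1620 against 964 and 1004 CPM (0.73), but with thinned cells 1 of 13 was called. Epcam was slightly lower, at 1477 and 1258 against 1869 and 1665 CPM (-0.34).

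Markers of epithelial to mesenchymal change did not move one way. Vim, the intermediate filament of mesenchymal cells, fell from 1041 and 686 to 641 and 300 CPM (-0.89), and Cdh1, the epithelial cadherin, was at 361 and 384 against 286 and 309 CPM (0.36). Cdh2, the cadherin of mesenchymal and neural cells, was at 91.3 and 167 against 30.7 and 37.1 CPM (1.93). Of 11 tested genes, 4 were called higher and 2 lower. Of 20 tested factors of epithelial differentiation, 7 were called higher and 6 lower. Over all tested genes the shares were 12.5% and 11.9%. Klf4, a factor of stratified differentiation, was among the higher at 397 and 384 against 235 and 264 CPM (0.68), with the call lost without G2/M cells and against EYFP-0 Crct1-0 cells. Among the lower, Ehf, an ETS factor of epithelia, was at 54.0 and 77.8 against 109 and 135 CPM (-0.86).

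Of 8 tested genes of milk and secretory proteins, 1 was called higher and 4 lower (median -0.45). The one higher was Btn1a1, which encodes butyrophilin of the milk fat globule, at 13.8 and 18.4 against 6.49 and 8.58 CPM (1.13), and those lower were Csn3, Lcn2, Slpi and Wfdc18. Of 16 tested immediate early genes, which respond to tissue dissociation, 5 were called higher and 4 lower, with Fos at 964 and 874 against 1245 and 1266 CPM (-0.42) and Dusp1 at 789 and 709 against 558 and 586 CPM (0.42). Of 12 interferon response genes, 4 were called higher and 2 lower. Isg15 and Rsad2 rested on replicate 2, with within-mouse log2 fold changes of -0.0007 and -0.11 in replicate 1 alone. Of 14 glycosylated surface proteins, 3 were called higher and 4 lower. The shares over all tested genes, 12.5% higher and 11.9% lower, are the background for each of these 4 lists.

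Members were not uniform. Compared with members of 2 to 5 Crct1 UMIs (54 and 44 cells), those with 6 or more (68 and 46) had more Trdc, at 266 and 442 CPM against 111 and 60.2 CPM, more S100a14, at 583 and 573 against 455 and 292 CPM, and more Krt6a, at 351 and 235 against 254 and 162 CPM. Bmp4 differed less, at 128 and 157 against 123 and 101 CPM, and Krt14 showed no common order, at 5733 and 3933 against 5120 and 4542 CPM. The cells with 1 Crct1 UMI were near the EYFP+ Crct1-0 cells for many genes, with Krt6a at 48.8 and 50.5 CPM against 64.7 and 31.5, and S100a14 at 163 and 118 CPM against 140 and 87.9. Lcn2 in these cells, at 4101 and 3372 CPM, was above the EYFP+ Crct1-0 cells and below the 4469 and 5272 CPM of Crct1-0 cells without EYFP.

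**Figure D5:**
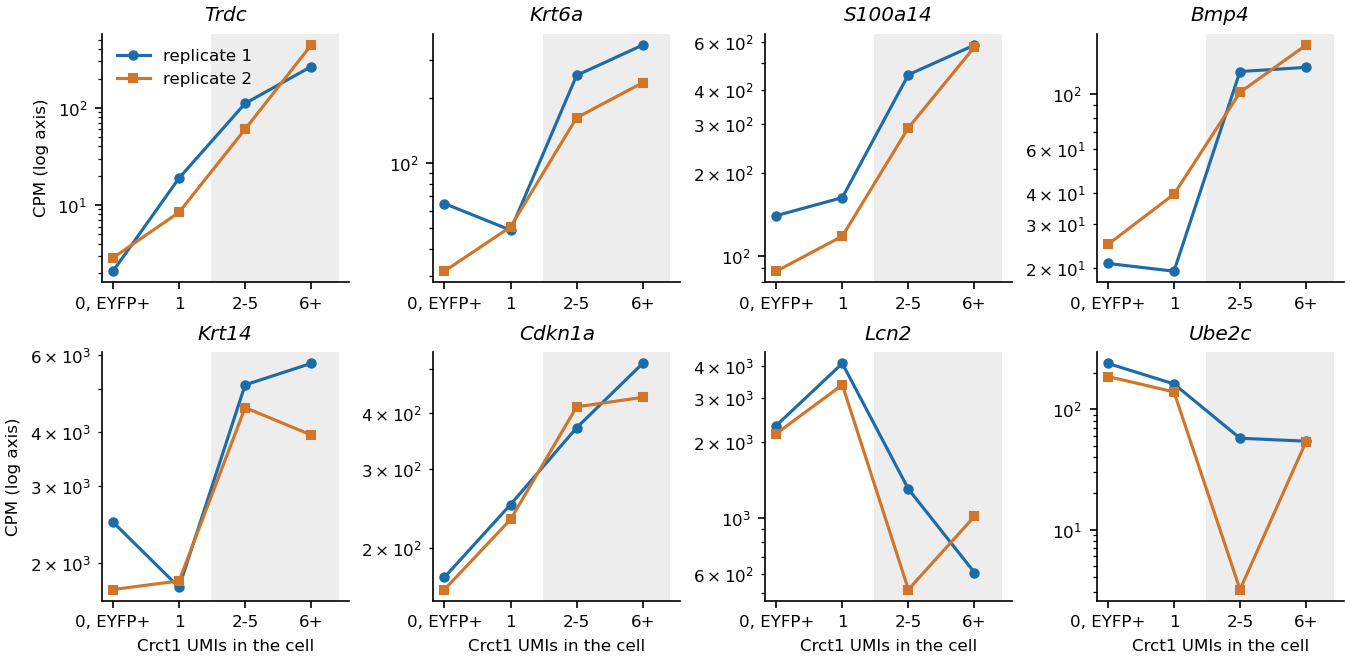
CPM of 8 genes (log axes, each with its own range) in epithelial cells of the 2 LATS1/2-KO libraries by Crct1 UMIs per cell, from EYFP+ cells with 0 to cells with 6 or more; the grey area marks the members. Trdc went from 2.08 and 2.86 CPM in EYFP+ Crct1-0 cells to 266 and 442 CPM in cells with 6 or more Crct1 UMIs, while Krt14 did not differ one way between the 2 classes of members.

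Members without an EYFP UMI (44 and 19 cells) were near the EYFP-positive members (78 and 71) in some genes and not in others. They were shallower, with medians of 8667 and 9264 against 14536 and 15565 UMIs. Krt14 was at 5141 and 3269 CPM in the EYFP-0 and at 5582 and 4334 CPM in the EYFP-positive members, and Cdkn1a at 406 and 414 against 469 and 426 CPM. Phlda3 was lower, at 218 and 199 against 334 and 270 CPM, and so was Bmp4, at 79.3 and 41.9 against 141 and 147 CPM. Lcn2 had no common order between the mice, at 827 and 2122 against 930 and 601 CPM, nor did Csn3, at 127 and 644 against 236 and 126 CPM. Krt6a had no common order between the mice, at 236 and 309 against 334 and 188 CPM. Trdc was at 31.7 and 31.4 CPM in the EYFP-0 against 256 and 315 CPM in the EYFP-positive members, Krt4 at 43.1 and 15.7 against 125 and 115 CPM and S100a7a at 24.9 and 20.95 against 55.4 and 104 CPM. Members without an Msln UMI (26 and 16 cells) had lower levels of Krt14, at 2596 and 2771 CPM, of S100a14, at 116 and 140 CPM, and of Trdc, at 18.1 and 0 CPM, and higher Csn3, at 689 and 667 CPM. These subgroups were formed on measured values and their differences were not tested.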

How the data were processed

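UMI counts per gene and barcode were deposited by the authors without normalization for 2 CTL and 2 LATS1/2-KO libraries (28693 genes). The file headers name Cell Ranger 6.1.2, the submitters' processing notes Cell Ranger 3.1.0 with mm10, and this difference was not settled. No doublets were taken out except in one alternative (Scrublet scores from scanpy 1.11.5). Counts were summed per mouse and cell class (1464677 to 12237084 UMIs a sum) and tested in edgeR 4.0.16 (R 4.3.3) by its quasi-likelihood test after TMM scaling and filterByExpr, blocking on the mouse, with p-values adjusted by Benjamini-Hochberg over the whole table and a threshold of 0.05. DESeq2 1.42.0 was an alternative. CPM were scaled to the UMIs of each sum. Members and comparison cells of one replicate number come from the same mouse, and their differences between the mice correlated at 0.67 across 3071 genes, which are not independent. P-values measure only the spread between these sums. Thinning drew 2000 UMIs per cell without replacement, leaving out shallower cells (14 and 28 comparison cells, 0 and 1 members). Intervals are exact binomial (Clopper-Pearson). Scripts were tested on simulated data. Positions are from GENCODE vM21 (GRCm38).

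Named by rule were the marker and rule genes, Lats1, Lats2, Krt14, Ctgf, Cyr61 and Ankrd1, the 12 largest and 12 smallest called changes with the same sign in both mice and a mean of at least 50 CPM in the higher class, up to 4 genes per list (called ones of highest CPM first) and the 10 with the largest gain in detection after thinning among genes found in at least 25% of members. Further genes of a list, the T cell genes and the neighbours of Crct1 were named after their values were seen. The members and lists were chosen with earlier results of these data known.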

Additional observations from a re-analysis of the deposited data

Results flagged for a closer look

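Crct1 was also counted in barcodes that the limits set aside. In LATS1/2-KO replicate 2, 5 kept cells with at least 1 Ptprc UMI had 2 or more Crct1 UMIs, against 0 in the 197 and 100 such cells of the CTL libraries. They had 1 or 2 Ptprc UMIs, 40.4 to 193 Krt8 plus Krt18 UMIs per 10000 and 9653 to 28669 UMIs in all. In the same library 3 barcodes that failed the limit on genes or mitochondrial UMIs had 2 or more, and in replicate 1 there was 1 cell under the keratin limit, with 8.75 keratin UMIs per 10000 and 1 EYFP UMI. The CTL libraries had 0 such barcodes.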

How the results depend on the processing

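Of 119 genes named by rule with a fold change, 102 were called, and 41 of these kept direction and call in every alternative that could be run. The number of genes called, 2807, became 742 with cells thinned to 2000 UMIs, 816 without G2/M cells, 492 without cells holding markers of another class, 789 with DESeq2 and 1435 with no replicate block, that is without the pairing by mouse, and each of the 1435 and 789 was also among the 2807. The first 3 of these leave fewer cells or UMIs. Leaving out a mouse leaves no residual degree of freedom, so it gave values and no test. The ranges were then 2.63 to 3.16% for the share of members, 63.9 to 78.9% for EYFP and 2.25 to 9.84% for the thinned G2/M share. The mean share of members, 2.90%, was 6.69% with at least 1 Crct1 UMI, 1.96% with 4, 1.55% with 6 (added after seeing the data), 2.22% without cells of another class and 1.32% thinned. The EYFP share of 71.4% was 50.8% with 1 Crct1 UMI and 38.4% thinned, and the G2/M share of 6.04% was 14.4% with 1 Crct1 UMI. The log2 fold changes that follow had the opposite sign, and the cause was not tested. With 1 Crct1 UMI these were Wfdc18 0.43, Csn3 0.067, Cd14 0.053, Trf 0.090, Igfbp5 0.35, Egfl7 0.83, Lcn2 0.013, Spp1 0.18 and Id3 -0.021, and with 6 Ly6d -0.85. Against all Crct1-0 cells they were Ankrd1 0.27, Prlr -0.60, Col3a1 -1.09, Col1a1 -1.12, Col1a2 -1.07, Dcn -1.56, Pecam1 -0.74, Plvap -1.68, Lyz2 -1.24, C1qb -1.27, Ly6d -0.80 and Tead1 0.37. Against EYFP-0 Crct1-0 cells they were Ankrd1 0.65, Prlr -0.87, Col3a1 -1.47, Col1a1 -1.45, Col1a2 -1.42, Dcn -1.98, Pecam1 -1.18, Plvap -2.10, Lyz2 -1.53, C1qb -1.62, Ly6d -1.09, Tead1 0.67 and Klf6 -0.024. Without G2/M cells they were Ankrd1 0.027, Prlr -0.072, Col3a1 -0.94, Col1a1 -1.60, Col1a2 -1.0005, Ly6d -0.088, Pcna 0.083, Cdk1 0.027, Klf6 -0.0003 and Bhlhe40 -0.069. Thinned, they were Col3a1 -0.071, Ly6d -0.46, Cd24a -0.13 and Col7a1 -0.11. Without cells of another class they were Acta2 0.30, Col3a1 -0.34, Klf6 -0.049, Id3 -0.25 and Bst2 -0.074. Without the deepest cells they were Col3a1 -0.18 and Col1a1 -0.65, without the highest Scrublet scores Col3a1 -0.20 and Dcn -0.66, and with a keratin limit of 20 Dcn -1.09. Without LATS1/2-KO replicate 2 they were Id3 -0.0014, Isg15 -0.0007 and Rsad2 -0.11, against 0.60, 0.79 and 1.49 without replicate 1.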
